A study of Mus musculus with 6 samples.

Results

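The 55 genes described here form the extracellular and membrane layer of Wnt signalling: 19 Wnt ligands, 10 Frizzled receptors, the co-receptors *Lrp5* and *Lrp6*, the alternative receptors *Ror1*, *Ror2* and *Ryk*, the ligand secretion factors *Porcn* and *Wls*, 10 secreted inhibitors and 9 genes of the R-spondin branch. They were chosen by gene symbol alone, out of 24393 features counted in every library, by a rule that uses no measured value. The rule and the gene lists below were nevertheless set with earlier results of these data known, so the shares below are not blind comparisons. Expression of all 55 was compared between HOXA13-overexpressing and control KH2 mouse embryonic stem cells (mESCs), to ask how the Wnt-facing surface and secretome of the cells differed between the groups.

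RNA was sequenced from undifferentiated KH2 mESCs, a line built to carry a transgene at a defined site under doxycycline control, in 3 control and 3 HOXA13 libraries. The labels give the genotypes as CONTROL and HOXA13, the strain of both as C57/BL/6, and state that no treatment was applied, whereas the study's methods describe FLAG-tagged human *HOXA13* targeted into the cells, with hygromycin-resistant clones tested for induction by doxycycline. Whether the sequenced control and HOXA13 cultures received doxycycline alike is not given in the sources used here, so that an effect of doxycycline itself and of HOXA13 cannot be told apart. Both groups were grown with LIF on irradiated 3T3-Swiss albino fibroblast feeders, so each library can contain feeder RNA. The methods call the libraries biological replicates but do not say whether each came from a clone of its own, and p-values therefore measure the spread between these libraries only.

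Total counts ranged from 14608681 to 21766589 in control and from 13494135 to 20374341 in HOXA13 libraries, and 3 counts equalled 0.134 to 0.227 CPM, the read count scaled by normalised library size. The feature with the human *HOXA13* identifier held 6, 0 and 0 counts in controls 1 to 3 and 4298, 4177 and 2881 in HOXA13 libraries 1 to 3, in the direction of the labels. Of 10 pluripotency markers, summing to 2753 to 3758 CPM in control and 3794 to 3906 in HOXA13 libraries, 5 were higher and 1 was lower with HOXA13, where 14.4% of all genes tested were higher and 13.3% lower. None of 20 fibroblast markers passed the test (3 had an unadjusted p below 0.05, DESeq2 called 2 and limma-voom 0). They summed to 15206 to 21146 CPM in control and 18299 to 22252 in HOXA13 libraries, and the part of feeder RNA in any value below was not tested. Primitive endoderm markers (1388 to 1781 against 1458 to 1695 CPM) had 2 higher and 2 lower of 9 tested, and neuroectoderm markers (250 to 430 against 121 to 127 CPM) 1 higher and 3 lower of 6 tested, beside the same shares of all genes. The higher neuroectoderm marker, *Neurog1*, had 4, 0 and 1 counts in control and 33, 15 and 11 in HOXA13 libraries, and passed the count filter through the HOXA13 libraries alone.

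Wnt proteins are secreted lipid-modified ligands. Porcupine attaches the lipid, Wntless carries the ligand to the surface, and Frizzled proteins with Lrp5 or Lrp6 receive it, which stabilises beta-catenin for use with TCF/LEF factors, while Ror and Ryk receptors also serve beta-catenin-independent routes. Sfrp, Dkk, Wif1 and Notum proteins restrain the signal outside the cell, and R-spondins with Lgr receptors raise it by removing the ubiquitin ligases Znrf3 and Rnf43, which clear Frizzled from the surface. In mESCs Wnt signals help to maintain self-renewal, and in the epiblast *Wnt3* is required for formation of the primitive streak.

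HOXA13 cells had lower levels of several ligands and of the R-spondin receptor *Lgr4*, and a higher level of the ligand *Wnt7b*, the receptor *Fzd7* and the Wnt-inactivating enzyme *Notum*. Of the 55 members, 44 had enough counts to be tested, and edgeR's quasi-likelihood test called 4 higher and 13 lower in HOXA13 at an adjusted p below 0.05. The 4 higher members were 9.09% of those tested, beside 14.4% of all 13846 genes tested, and the 13 lower members were 29.5%, beside 13.3% of all genes. The number lower was 4 without HOXA13 replicate 1, 7 without HOXA13 replicate 3 and 8 with limma-voom, and 18 without control replicate 2. Shares of all genes were counted for the main edgeR test only, so counts under other settings, here and below, have no such share beside them. The median log2 fold change (HOXA13 over control throughout) was -0.25 over the 44 members and 0.00 over all genes. In 7 members every HOXA13 library lay above every control library, and in 15 every one lay below, beside 23.5% and 22.2% of all genes in those directions, and in the other 22 the groups overlapped. The other 11 members were not tested. Among those tested, *Wnt3*, *Wnt8a*, *Wnt10a*, *Wnt10b* and *Rspo1* met the count minimum in all control libraries but not in all HOXA13 libraries, and with at least 10 counts required in every library 39 members were tested, 3 higher and 10 lower. In cultures measured in bulk, fewer cells that express a gene and less RNA per cell cannot be told apart.

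**Figure D1:**
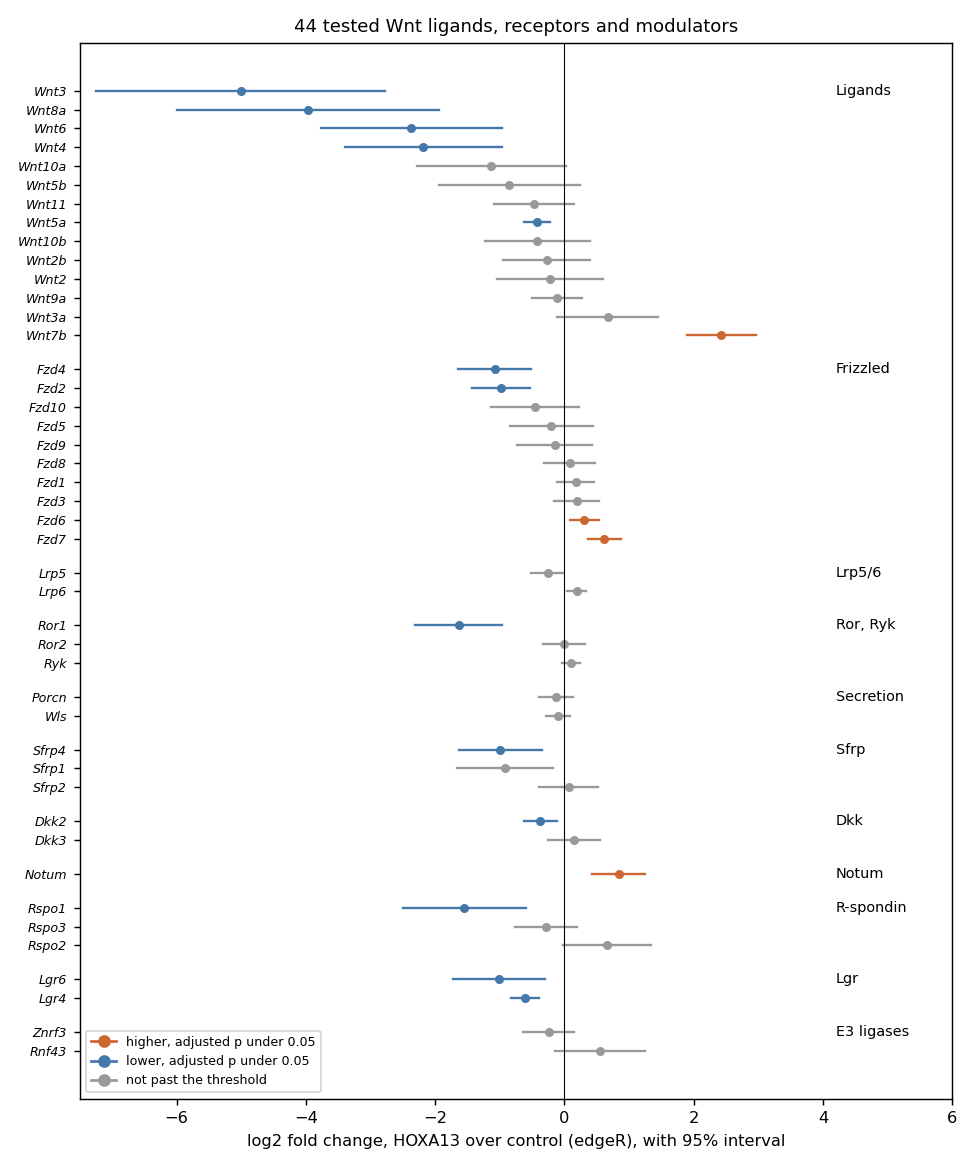
Log2 fold change (HOXA13 over control, horizontal axis) of the 44 tested members, grouped by role, with bars for the 95% confidence interval; coloured points pass an adjusted p of 0.05. The ligands run from -5.01 for *Wnt3* to 2.42 for *Wnt7b*, whereas the receptors *Fzd2*, *Fzd4*, *Fzd6* and *Fzd7* stay between -1.08 and 0.62.

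Of the 14 tested ligands, 5 were lower with HOXA13 (35.7%, beside 13.3% of all genes), 1 was higher and 8 did not pass the test, with a median log2 fold change of -0.45. *Wnt3*, whose product acts through beta-catenin in streak formation, measured 56.8, 4.35 and 19.5 CPM in controls 1 to 3 and 0.66, 1.32 and 0.454 CPM in HOXA13 libraries 1 to 3. Its log2 fold change was -5.01 (SE 0.97, adjusted p = 0.00698), and even the lowest control lay above all HOXA13 libraries. *Wnt8a*, another beta-catenin-activating ligand, measured 15.8, 1.36 and 6.92 CPM in control and 0.203, 0.771 and 0.605 CPM in HOXA13 libraries (log2 fold change -3.97, SE 0.88, adjusted p = 0.0125). Both ligands were thus low in every HOXA13 library but spread widely in control, by 13.1-fold for *Wnt3* and 11.6-fold for *Wnt8a* between the highest and lowest control. Without control replicate 1 both stayed past the threshold at smaller sizes, -3.85 for *Wnt3* (adjusted p = 0.00152) and -3.05 for *Wnt8a* (0.00811). *Wnt3* did not pass without HOXA13 replicate 1 (adjusted p = 0.0544) or with limma-voom (0.0988), and *Wnt8a* did not pass without HOXA13 replicate 1 (0.0769) or 3 (0.0518) or with limma-voom (0.0806).

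*Wnt6*, a ligand of epithelia, measured 11.7, 2.45 and 4.29 CPM in control and 0.66, 1.32 and 1.74 CPM in HOXA13 libraries, a log2 fold change of -2.37 (SE 0.61, adjusted p = 0.0226). *Wnt4*, known for its part in kidney and ovary formation, measured 14.3, 3.06 and 6.11 CPM in control and 1.47, 1.71 and 2.12 CPM in HOXA13 libraries, a log2 fold change of -2.18 (SE 0.53, adjusted p = 0.0178). As for *Wnt3* and *Wnt8a*, control 1 was the highest and control 2 the lowest control, and the groups did not overlap. Without control replicate 1, *Wnt6* stood at -1.51 (adjusted p = 0.0154) and *Wnt4* at -1.42 (0.00831). The call on *Wnt6* was lost without any 1 HOXA13 library (adjusted p from 0.055 to 0.111), with the replicate number as a block (0.0505) and with limma-voom (0.0542), and that on *Wnt4* without any 1 HOXA13 library (0.0558 to 0.0948) and with limma-voom (0.0541).

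The promoters of the lower ligands with a window in the RefSeq promoter table are printed because *Wnt3*, *Wnt4* and *Wnt6* were lower together and shared their order among the controls. Each line holds the 150 bases before the annotated start on the plus strand of build GRCm38.p6, 5′ to 3′, with CpG dinucleotides in capitals. The positions are chr11:103774025-103774174 for *Wnt3*, chr4:137277485-137277634 for *Wnt4* and chr1:74771742-74771891 for *Wnt6*.
Wnt3: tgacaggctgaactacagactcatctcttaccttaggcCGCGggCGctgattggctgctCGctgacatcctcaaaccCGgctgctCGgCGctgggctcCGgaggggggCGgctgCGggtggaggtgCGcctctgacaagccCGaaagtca
Wnt4: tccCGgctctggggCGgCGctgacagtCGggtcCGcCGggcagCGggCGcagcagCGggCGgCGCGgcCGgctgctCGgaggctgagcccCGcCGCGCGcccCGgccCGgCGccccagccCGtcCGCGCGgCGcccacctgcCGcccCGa
Wnt6: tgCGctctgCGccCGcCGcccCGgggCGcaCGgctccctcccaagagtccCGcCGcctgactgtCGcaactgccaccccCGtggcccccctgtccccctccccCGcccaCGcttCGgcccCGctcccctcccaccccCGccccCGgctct

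All 3 stretches were rich in CpG, with 12 CpG and 64.7% G or C for *Wnt3*, 28 and 86.0% for *Wnt4*, and 17 and 80.0% for *Wnt6*. RefSeq windows from 250 bases before to 50 after the start were found for 35 of the 55 members (39 windows, some genes having several). The *Wnt3*, *Wnt4* and *Wnt6* windows held 65.7, 84.3 and 76.7% G or C and 24, 51 and 31 CpG. The medians over all windows were 52.7% and 7 CpG. Windows of tested ligands that were not called ran from 53.0% (*Wnt5b*) to 86.3% (*Wnt3a*), so this richness was not particular to the lower ligands. The words CTTTGAA or CTTTGAT, forms of the TCF/LEF recognition sequence, were searched on both strands and stood in 3 member windows (7.69%), those of *Dkk1*, *Wnt11* and *Wnt5b*, beside 8.65% of all 32851 windows. CAATAAA, a word bound by HOX13-group proteins, stood in 1 member window (2.56%), that of *Wnt2*, beside 4.6% of all windows, and CTCGTAAA in 0 of 39, beside 0.131%. No word searched contains another, and the *Wnt3*, *Wnt4* and *Wnt6* windows held none of these words. The promoter table used here held no window for *Wnt5a*, *Wnt7b*, *Wnt8a*, *Wnt10a*, *Fzd2*, *Fzd3*, *Fzd6*, *Fzd8*, *Lrp5*, *Lrp6*, *Porcn*, *Sfrp1*, *Sfrp4*, *Dkk3*, *Dkk4*, *Notum*, *Rspo2*, *Rspo3*, *Lgr5* and *Znrf3*.

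Of the other ligands, *Wnt5a*, which mainly signals without beta-catenin, measured 42.3, 39.3 and 43.3 CPM in control and 28.4, 31.6 and 32.8 CPM in HOXA13 libraries, a log2 fold change of -0.43 (SE 0.09, adjusted p = 0.00811). *Wnt7b*, known for its roles in lung and placenta, measured 5.17, 8.09 and 11.2 CPM in control and 43.0, 43.9 and 44.1 CPM in HOXA13 libraries, a log2 fold change of 2.42 (SE 0.23, adjusted p = 0.000279). The *Wnt7b* levels lay close together in the HOXA13 libraries and all lay far above the highest control. Both calls held under all 15 alternatives tried. In build mm9 the locus of *Wnt7b* is chr15:85365869-85412251, and an antisense gene that overlaps 38 bp of its exons, *AU022754*, had at most 3 counts in any library.

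In mm9, *Wnt3* lies at chr11:103635464-103679271, *Wnt8a* at chr18:34701967-34707927, *Wnt4* at chr4:136833404-136855641, *Wnt5a* at chr14:29317936-29340633 and *Wnt6* at chr1:74818466-74831893. Among the lower ligands, *Wnt3* and *Wnt6* have a Wnt gene as neighbour, *Wnt9b* at 24328 bp from *Wnt3* and *Wnt10a* at 6196 bp from *Wnt6*. *Wnt10a* measured 0.892, 0.68 and 0.606 CPM in control and 0.203, 0.605 and 0.151 CPM in HOXA13 libraries, with a log2 fold change of -1.13 that did not pass (adjusted p = 0.131; -1.97 and 0.0465 without HOXA13 replicate 2). *Wnt9b* had too few counts to be tested, with 50, 1 and 17 in control and 8, 0 and 0 in HOXA13 libraries. The *Wnt9b* groups overlapped, and in edgeR without the filter on low counts its log2 fold change was -2.79 (adjusted p = 0.0934).

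The remaining tested ligands did not pass. *Wnt5b* measured 16.5, 3.26 and 8.64 CPM in control and 5.69, 4.57 and 5.82 CPM in HOXA13 libraries (log2 fold change -0.85, adjusted p = 0.222). The HOXA13 values lay inside the control range, and the value was -0.19 without control replicate 1 (adjusted p = 0.703) and -1.25 without control replicate 2 (0.00551). *Wnt3a*, the paralogue of *Wnt3*, was at 0.992 ± 0.272 CPM in control and 1.6 ± 0.468 CPM in HOXA13 (mean ± SD, n = 3 each, log2 fold change 0.67, adjusted p = 0.18). *Wnt2*, *Wnt2b*, *Wnt9a*, *Wnt10b* and *Wnt11* had log2 fold changes from -0.47 to -0.12 with adjusted p from 0.234 to 0.68, and their groups overlapped.

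**Figure D2:**
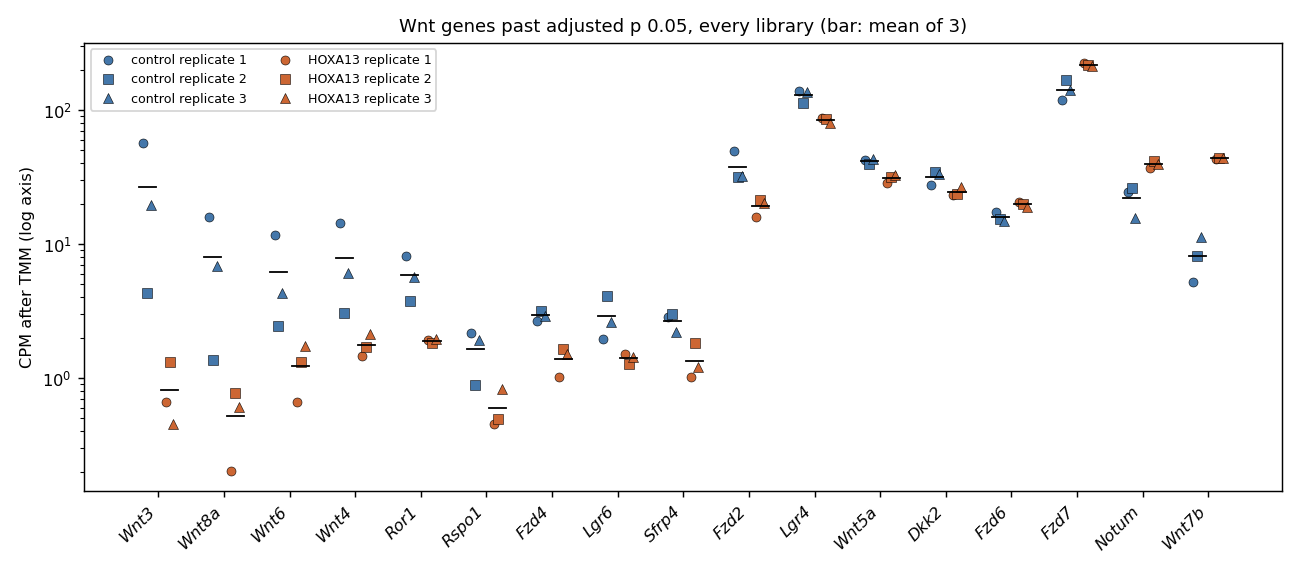
CPM on a log10 axis of the 17 members past an adjusted p of 0.05, each point 1 library (3 control, 3 HOXA13) and each bar a group mean. *Wnt3*, *Wnt8a*, *Wnt6* and *Wnt4* spread widely among the controls, whereas the HOXA13 points of *Wnt7b* and *Lgr4* lie close together and apart from the controls.

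The control values of *Wnt3*, *Wnt8a*, *Wnt6* and *Wnt4* ran in the same order as those of *T* (Brachyury), a beta-catenin target that marks the primitive streak, with 181, 10.5 and 85.2 CPM in control and 1.37, 2.48 and 2.27 CPM in HOXA13 libraries. The log2 fold change of *T* was -5.53 (SE 0.99, adjusted p = 0.00519). The 10 primitive streak markers together summed to 376, 37.3 and 171 CPM in control and to 26.5, 24.9 and 24.6 CPM in HOXA13 libraries. Of 8 tested, 4 were lower (*T*, *Mixl1*, *Eomes* and *Fgf8*), beside 13.3% of all genes, and the others did not pass (DESeq2 called 4 and limma-voom 0). *Fgf8* had 961, 43 and 365 counts in control and 1, 1 and 0 in HOXA13 libraries, and passed the count filter through the control libraries alone. *Mesp1* and *Msgn1* were at 0 in control 2 and in all HOXA13 libraries. The order with control 1 highest and control 2 lowest was found in 8 of the 13 lower members (*Wnt3*, *Wnt4*, *Wnt6*, *Wnt8a*, *Fzd2*, *Ror1*, *Rspo1* and *Lgr4*), in none of the 4 higher members, in 43.2% of the tested members and in 25.5% of all genes tested. The part of streak-like cells in these differences was not tested.

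The spread of the family within the control group was wide. The median coefficient of variation of the tested members was 25.9% among control and 7.22% among HOXA13 libraries, beside 11.6% and 6.54% over all genes tested. It was larger among controls for 36 of the 44 members (81.8%), beside 71.2% of all genes. The opposite order, with control 2 highest and control 1 lowest, occurred in 11 members, among them *Fzd5*, *Fzd7*, *Sfrp1*, *Dkk2*, *Rspo2* and *Lgr6*, which was 25% beside 23.6% of all genes.

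**Figure D3:**
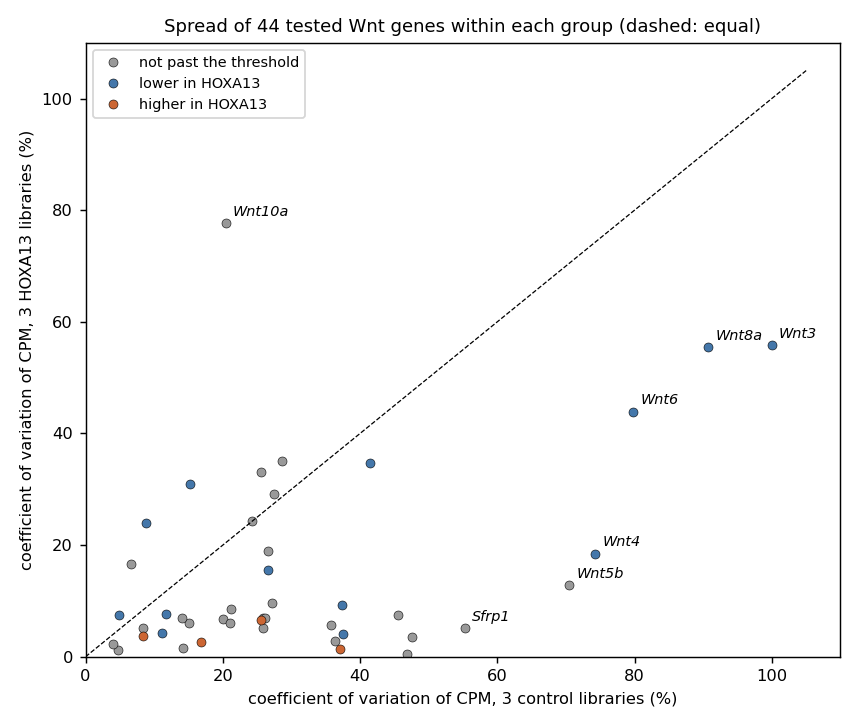
Coefficient of variation (SD over mean, in percent) of CPM among the 3 control libraries (horizontal axis) and the 3 HOXA13 libraries (vertical axis), 1 point per tested member, with colours for the edgeR call. Most points, 36 of 44, lie below the dashed line of equal spread, and *Wnt3* lies farthest to the right.

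Neither factor that ligands need for secretion passed the test. *Wls*, the ligand carrier, was at 155 ± 13.1 CPM in control and 145 ± 7.55 CPM in HOXA13 (n = 3 each), a log2 fold change of -0.10 (95% interval -0.28 to 0.08, adjusted p = 0.39). *Porcn*, the acyltransferase, was at 22.0 ± 3.12 and 20.1 ± 0.322 CPM, a log2 fold change of -0.13 (-0.39 to 0.14, adjusted p = 0.451). DESeq2 and limma-voom called neither, and the unadjusted p of both was above 0.05, with differences up to the bounds of these intervals left possible.

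All 10 Frizzled receptors were tested, with 2 higher and 2 lower, beside 14.4% and 13.3% of all genes. *Fzd7*, the Frizzled gene with the highest level per length in both groups, measured 119, 167 and 140 CPM in control and 224, 217 and 212 CPM in HOXA13 libraries (log2 fold change 0.62, SE 0.11, adjusted p = 0.00561). *Fzd2* measured 49.3, 31.7 and 32.2 CPM in control and 15.8, 21.4 and 20.4 CPM in HOXA13 libraries (-0.98, SE 0.19, adjusted p = 0.00785). Neither receptor's groups overlapped, and both calls held under all 15 alternatives. *Fzd7* lies at chr1:59538991-59543791 in mm9, and chromosome 1 as a whole had a median log2 fold change of 0.37, with 55.9% of its 771 tested genes called. With each chromosome's median set to 0, *Fzd7* stood at 0.25 (adjusted p = 0.0364), so its difference shrank but stayed past the threshold. Under this centring the differences of the lower members *Wnt6* and *Wnt5a* grew instead, with *Wnt6* on chromosome 1 at -2.78 (adjusted p = 0.0119) and *Wnt5a* on chromosome 14 (median 0.26) at -0.73 (0.00678).

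*Fzd4*, which also receives the non-Wnt ligand Norrin, measured 2.68, 3.19 and 2.93 CPM in control and 1.02, 1.65 and 1.51 CPM in HOXA13 libraries (log2 fold change -1.08, SE 0.25, adjusted p = 0.0144; 0.0617 without HOXA13 replicate 1). *Fzd6*, a receptor of planar cell polarity, measured 17.3, 15.4 and 14.8 CPM in control and 20.5, 19.8 and 19.0 CPM in HOXA13 libraries (0.31, SE 0.10, adjusted p = 0.0476). The groups did not overlap for either gene, but the *Fzd6* call was lost under more alternatives than any other of the 17, namely without any 1 library except control 1 (adjusted p from 0.0831 to 0.146), and with another scaling, another filter, the block or DESeq2 (0.0523 to 0.106). In mm9, *Fzd2* is at chr11:102465745-102469372, *Fzd4* at chr7:96552876-96558620 and *Fzd6* at chr15:38837879-38869732.

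The other 6 Frizzled genes did not pass. *Fzd5* measured 49.0, 122 and 69.5 CPM in control and 69.7, 69.0 and 69.4 CPM in HOXA13 libraries (log2 fold change -0.20, adjusted p = 0.635; -0.54 and 0.111 with each chromosome centred), and *Fzd10* 38.5, 14.3 and 23.9 CPM in control and 18.1, 19.4 and 18.8 CPM in HOXA13 libraries (-0.46, adjusted p = 0.29). The HOXA13 values of both lay close together inside a wide control range. *Fzd10* stood at -0.04 without control replicate 1 (adjusted p = 0.886) and at -0.75 without control replicate 2 (0.0103), and *Fzd5* at -0.46 without control replicate 1 (0.0852) and at 0.22 without control replicate 2 (0.215). An annotated copy named *Fzd10* on the same strand covers 2430 of its 3250 exon bases, so that its counts are uncertain. *Fzd1*, *Fzd3*, *Fzd8* and *Fzd9* had log2 fold changes from -0.15 to 0.19 with adjusted p from 0.331 to 0.763, and *Fzd3* passed only without control replicate 2 (0.0366).

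Per kilobase of exon, the 10 Frizzled genes together summed to 74.5, 84.8 and 73.1 CPM per kb in control and 86.1, 87.7 and 84.8 in HOXA13 libraries. *Fzd7* made up 38.1 ± 4.15% of that sum in control and 52.7 ± 1.39% in HOXA13, and *Fzd2* 13.6 ± 4.16% and 6.14 ± 0.939% (mean ± SD, n = 3 each). The shares of *Fzd5* (14.7 ± 5.69% and 11.6 ± 0.234%) and *Fzd10* (10.4 ± 5.36% and 6.7 ± 0.209%) varied more among controls than their means differed. The share of *Fzd7* was higher in every HOXA13 library than in any control. These shares are not centred by chromosome. *Fzd7* and *Fzd5* lie on chromosome 1 (median log2 fold change 0.37), and their centred log2 fold changes were 0.25 and -0.54.

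**Figure D4:**
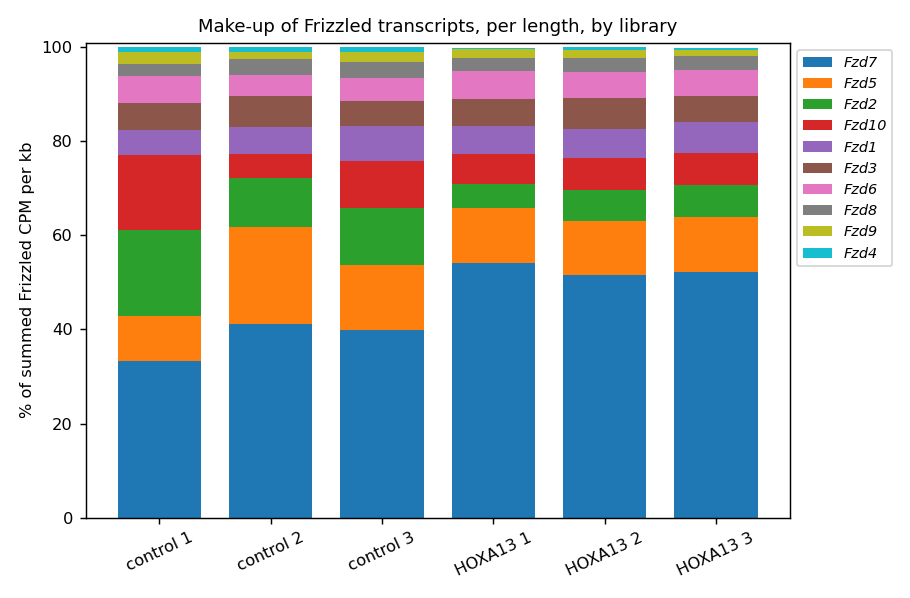
Share of each Frizzled gene in the summed CPM per kb of the 10 Frizzled genes (vertical axis, percent), 1 bar per library. *Fzd7* holds 38.1 ± 4.15% of the sum in control and 52.7 ± 1.39% in HOXA13 libraries, and *Fzd2* 13.6 ± 4.16% and 6.14 ± 0.939%. *Fzd7* and *Fzd5* lie on chromosome 1, whose median log2 fold change was 0.37.

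The co-receptors did not pass. *Lrp6* was at 109 ± 5.19 CPM in control and 124 ± 1.46 CPM in HOXA13, with every HOXA13 library above every control (log2 fold change 0.19, 95% interval 0.04 to 0.33, adjusted p = 0.0564). *Lrp5* was at 94.9 ± 13.3 and 79.1 ± 5.53 CPM with overlapping groups (-0.26, adjusted p = 0.105). *Lrp6* passed without control replicate 1 (0.0272) and *Lrp5* without control replicate 2 (0.0138).

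Of the 3 alternative receptors, *Ror1*, a receptor tyrosine kinase of the Wnt5a branch, was lower, with 8.12, 3.74 and 5.71 CPM in control and 1.93, 1.82 and 1.97 CPM in HOXA13 libraries (chr4:99768396-100117370 in mm9, log2 fold change -1.63, SE 0.29, adjusted p = 0.0051). This call held under all 15 alternatives. Its paralogue *Ror2* was at 41.4 ± 8.68 CPM in control and 41.4 ± 2.52 CPM in HOXA13 (-0.00, adjusted p = 0.984), and *Ryk* at 126 ± 5.04 and 135 ± 2.98 CPM (0.10, adjusted p = 0.271).

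Of 6 secreted inhibitors tested, 1 was higher and 2 were lower, beside 14.4% and 13.3% of all genes. The higher one, *Notum*, the carboxylesterase that removes the lipid from Wnt proteins, measured 24.4, 26.3 and 15.7 CPM in control and 36.8, 41.9 and 39.6 CPM in HOXA13 libraries. Its log2 fold change was 0.84 (SE 0.18, adjusted p = 0.00996; chr11:120515102-120522489 in mm9), the groups did not overlap, and the call held under all 15 alternatives. Antisense genes overlap up to 708 of its 2408 exon bases, and whether the counting used strand is not given in the sources used here, although the library kit keeps it.

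*Dkk2*, which binds Lrp co-receptors, measured 27.5, 34.2 and 33.6 CPM in control and 23.3, 23.7 and 26.8 CPM in HOXA13 libraries (log2 fold change -0.37, SE 0.11, adjusted p = 0.0403; chr3:131748256-131843257). *Sfrp4*, a decoy receptor, measured 2.85, 2.99 and 2.22 CPM in control and 1.02, 1.82 and 1.21 CPM in HOXA13 libraries (-0.99, SE 0.28, adjusted p = 0.032; chr13:19714973-19724863). Both inhibitors were lower without overlap. The *Dkk2* call was lost without any 1 library except control 1 (adjusted p from 0.056 to 0.148), and that on *Sfrp4* without HOXA13 replicate 1 (0.13) or 3 (0.113).

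*Sfrp1* measured 45.6, 117 and 51.6 CPM in control and 36.7, 36.1 and 39.7 CPM in HOXA13 libraries. Every HOXA13 library lay below every control, and control 2 stood apart from the other controls, but the difference missed the threshold (log2 fold change -0.92, 95% interval -1.66 to -0.18, adjusted p = 0.0665), and it passed without control replicate 1 (-1.16, adjusted p = 0.00865), without control replicate 2 at a smaller size (-0.39, adjusted p = 0.00984), without normalization beyond library size (0.0472) and without the filter (0.0415). *Sfrp2* was at 11.7 ± 3.18 and 12.4 ± 1.19 CPM (0.07, adjusted p = 0.834) and *Dkk3* at 43.3 ± 11.2 and 47.9 ± 2.43 CPM (0.15, adjusted p = 0.579), both with overlapping groups.

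In the R-spondin branch, 3 of 7 tested genes were lower, beside 13.3% of all genes, and 4 did not pass. *Lgr4*, the main R-spondin receptor of these cells by level, measured 138, 113 and 137 CPM in control and 87.3, 85.5 and 80.4 CPM in HOXA13 libraries (log2 fold change -0.61, SE 0.09, adjusted p = 0.00214; chr2:109757804-109854414). The groups stood apart in every library, and the call held under all 15 alternatives. Its relative *Lgr6* measured 1.96, 4.08 and 2.63 CPM in control and 1.52, 1.27 and 1.44 CPM in HOXA13 libraries (-1.01, SE 0.31, adjusted p = 0.0423; chr1:136882925-137001853). *Rspo1*, a secreted R-spondin, measured 2.18, 0.883 and 1.92 CPM in control and 0.457, 0.495 and 0.832 CPM in HOXA13 libraries (-1.55, SE 0.42, adjusted p = 0.0268; chr4:124663674-124686343).

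The *Lgr6* and *Rspo1* levels did not overlap between groups, but both calls depended on single libraries. *Lgr6* was not called without any 1 library except control 1 (adjusted p from 0.0697 to 0.147), with the block (0.0755) or with limma-voom (0.0713), and *Rspo1* was not called without control replicate 3 (0.0864) or HOXA13 replicate 1 (0.127) or 2 (0.114). *Rspo2* measured 5.48, 14.6 and 9.95 CPM in control and 14.3, 16.2 and 16.3 CPM in HOXA13 libraries (log2 fold change 0.66, adjusted p = 0.136), with 0.36 without control replicate 1 (0.129) and 1.01 without control replicate 2 (0.00689). *Rspo3* was at 5.66 ± 1.46 and 4.70 ± 0.331 CPM (-0.28, adjusted p = 0.36). The ubiquitin ligases did not pass, with *Znrf3* at 33.6 ± 8.82 and 28.4 ± 1.97 CPM (-0.24, adjusted p = 0.325) and *Rnf43* at 1.04 ± 0.38 and 1.56 ± 0.0437 CPM (0.55, adjusted p = 0.211). Neither ligase had an unadjusted p below 0.05.

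Per kilobase of exon, the scale on which levels of different genes can be ordered, *Wls* (47.0 ± 3.95 CPM per kb) and *Ryk* (38.5 ± 1.54) led in control, followed by *Fzd7* (29.6 ± 5.02) and *Lgr4* (22.0 ± 2.46). In HOXA13 libraries *Fzd7* (45.4 ± 1.22), *Wls* (43.9 ± 2.29) and *Ryk* (41.2 ± 0.913) led, with *Fzd7* and *Wls* apart by less than the SD of *Wls*, and *Notum* (16.4 ± 1.07) and *Lrp5* (15.3 ± 1.07) followed. *Wnt3* went from rank 13 of 55 (8.73 ± 8.77 CPM per kb) to rank 42 (0.264 ± 0.147), and *Wnt7b* from rank 31 (1.85 ± 0.685) to rank 10 (9.89 ± 0.141). The control SD of *Wnt3* was as large as its mean, so its rank in control is not fixed by these libraries.

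Summed per length, the 19 ligands gave 55.7, 17.2 and 30.5 CPM per kb in control and 20.6, 22.3 and 23.3 in HOXA13 libraries, so that the HOXA13 sums lay inside the control range. Their make-up differed. *Wnt7b* made up 2.1, 10.7 and 8.34% of the sum in control and 47.2, 44.5 and 43.0% in HOXA13 libraries. *Wnt3* made up 33.1, 8.23 and 20.8% in control and 1.04, 1.92 and 0.634% in HOXA13 libraries. *Wnt8a* made up 16.2, 4.53 and 13% in control and 0.564, 1.98 and 1.49% in HOXA13 libraries. In each HOXA13 library *Wnt7b* was the leading ligand message by share, whereas *Wnt3* led in controls 1 and 3 and *Wnt5a* (29.3%) in control 2.

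The 11 untested members had from 0 to 50 counts per library. *Wnt7a*, the close paralogue of *Wnt7b*, had 12, 7 and 7 counts in control and 0, 3 and 0 in HOXA13 libraries, at least 2.51-fold lower in mean CPM with each HOXA13 library set to 3 counts. *Sfrp5* had 30, 10 and 10 counts in control and 4, 1 and 2 in HOXA13 libraries. Without the filter on low counts, *Wnt7a* (adjusted p = 0.0391) and *Sfrp5* (0.0123) passed as lower and *Wnt9b* (0.0934) and *Wnt16* (0.201) did not. *Wnt16* had 3, 3 and 6 counts in control and 8, 10 and 5 in HOXA13 libraries. *Lgr5*, *Dkk1* and *Wif1* had 1 to 14 counts per library with overlapping groups, *Wnt1*, *Dkk4* and *Rspo4* had at most 3 in any library, and *Wnt8b* had 0 in all 6. Without the filter none of these genes with counts passed (adjusted p from 0.362 to 0.939).

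Other genes of the pathway, outside the symbol rule, were read from a list of 51 genes, of which 47 were tested, 5 were higher (10.6%) and 17 lower (36.2%), beside 14.4% and 13.3% of all genes, with a median log2 fold change of -0.23. The 17 lower became 9 without HOXA13 replicate 1, 9 without replicate 2 and 10 without replicate 3, and the 5 higher became 1 without HOXA13 replicate 2 or 3 and 3 without HOXA13 replicate 1 or control replicate 3. The negative-feedback gene *Axin2*, a common readout of beta-catenin signalling, measured 59.6, 19.0 and 30.6 CPM in control and 14.3, 15.4 and 15.9 CPM in HOXA13 libraries (-1.27, SE 0.36, adjusted p = 0.0317). *Lef1*, a nuclear partner of beta-catenin, measured 32.6, 8.63 and 15 CPM in control and 2.54, 3.41 and 3.02 CPM in HOXA13 libraries (-2.66, SE 0.47, adjusted p = 0.00462). Both were again highest in control 1 and lowest in control 2. Whether the calls on single genes of this list held under the alternatives is not given here. Its relatives *Tcf7* (-1.82, adjusted p = 0.0068) and *Tcf7l1* (-0.62, adjusted p = 0.00119) were lower and *Tcf7l2* was higher (0.46, adjusted p = 0.0195), and the target *Sp5* did not pass (-0.71, adjusted p = 0.182).

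At the cell surface, the list's lower genes included the Dkk receptor *Kremen2* (-2.76, adjusted p = 0.0131), the glypican *Gpc3* (-1.41, adjusted p = 0.0202), the co-receptor *Ptk7* (-0.83, adjusted p = 0.0022) and the decoy receptor *Frzb* (2.86 CPM in control and 1.42 in HOXA13 on average, adjusted p = 0.0144). The polarity cadherin *Celsr1* was higher (0.65, adjusted p = 0.000994), whereas its relatives *Celsr2* (-0.71, adjusted p = 0.00706) and *Celsr3* (-0.65, adjusted p = 0.0142) were lower. Members of 1 gene family thus passed in opposite directions here, as among the Wnt ligands and the Frizzled receptors.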

How the data were processed

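Stranded poly(A) libraries (NEBNext Ultra Directional) of 3 control and 3 HOXA13 samples were mapped to mm9 and counted by the authors. The submitters' processing notes name TopHat2 2.0.14, HTSeq 0.6.1p1 and bcl2fastq 2.17. The methods text names another TopHat version, and the annotation, counting mode and strand setting are not given in the sources used here. The deposited values are raw counts per gene, without normalization.

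Groups came from sample titles. Counts were tested with edgeR 4.0.16 (TMM scaling, filterByExpr with minimum count 10 and total 15, quasi-likelihood test, Benjamini-Hochberg over 13846 genes, threshold 0.05). CPM use TMM library sizes. Standard errors are the log2 fold change over the root of F. Lengths and mm9 positions came from GENCODE vM1 (NCBIM37), and promoters from RefSeq (GRCm38.p6), and the builds were not mixed. Alternatives were DESeq2 1.42.0, limma-voom 3.58.1, other scalings and filters, a replicate block, chromosome centring and leaving out each library. Only edgeR, DESeq2 and limma-voom with default settings were tried on simulated data, and the other alternatives were not. Every member past the threshold was named with its libraries' values, the others by value or range. Pathway and marker genes past the threshold, and *Axin2*, *Lef1*, *Sp5*, *T* and *HOXA13*, could be named. The members and lists were chosen with earlier results of these data known. Ligand proteins were not analysed here.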

Additional observations from a re-analysis of the deposited data

How the results depend on the processing

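The number of members higher (4) stayed between 3 and 5 under all 15 alternatives, including 3 to 5 without 1 library. The number lower (13) was 8 with limma-voom and ran from 4 to 18 without 1 library. In the pathway list, 5 higher became 3 with library size alone and 3 with the replicate block, and 1 to 6 without 1 library, and 17 lower became 9 to 22 without 1 library. The labels' replicate numbers were not shown to pair libraries, since deviations from the group means of same-numbered libraries correlated at -0.015, -0.045 and 0.018, and not every library correlated best with its own number. With the replicate number as a block, 3 members were higher and 11 lower. Of the 17 calls, 7 (*Wnt5a*, *Wnt7b*, *Fzd2*, *Fzd7*, *Ror1*, *Notum* and *Lgr4*) were kept under every alternative. No called member changed sign. Signs turned, never past the threshold, for *Sfrp2* (library size alone, -0.01), *Ror2* (0.00 without the filter, 0.01 with the block, 0.00 with limma-voom) and *Fzd3* (each chromosome centred, -0.08). Without 1 library, log2 fold changes ran across 0 for *Wnt2b* (-0.45 to 0.07), *Wnt9a* (-0.21 to 0.02), *Fzd5* (-0.46 to 0.22), *Fzd8* (-0.07 to 0.20), *Fzd9* (-0.30 to 0.09), *Ror2* (-0.12 to 0.18), *Sfrp2* (-0.13 to 0.25) and *Dkk3* (-0.06 to 0.27). The cause was not tested. The 11 untested members fell below the count filter, and among them *Wnt7a* and *Sfrp5* passed as lower without it. For these 11, low depth and low or absent expression cannot be told apart.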
